A study of Mus musculus with 8 samples.

Results

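Collagen chain genes encode the alpha chains that assemble into collagens, the main structural proteins of connective tissue, and here they were all genes measured by probe sets whose only symbol was Col, a number, the letter a and a number. This rule gave 42 genes with 82 probe sets, of 18194 genes that could be named and 45101 probe sets on the array. Gene expression was measured on 2 Affymetrix mouse arrays in each of 4 groups, 8 arrays in all. The co-culture group was OP9 cells, a line of bone marrow stroma labelled B6C3F1, grown together with the pre-B cell line 230-238 over 7 days. The OP9 group was the same line with no pre-B cells. The study describes the control of the co-culture as kept in medium conditioned by the co-culture. According to the study the OP9 cells of the co-culture and of its control carried the red protein mStrawberry from a retrovirus and were sorted as red cells after trypsin and EDTA. The titles name the OP9 arrays only as OP9, so whether they are this control cannot be told from them. If they are, conditioned medium, virus and sorting may also set them apart from the other lines. If they are not, virus and sorting may set them apart from the co-culture. The remaining groups were MC3T3, described as an osteoblast-like line, and NIH3T3, an embryonic fibroblast line, both labelled Balb/c and both grown in DMEM, whereas the OP9 cells were grown in OptiMEM, so that line, strain and medium cannot be told apart between them. The arrays are labelled as biological replicates, but nothing says that the MC3T3 or the NIH3T3 arrays came from separate cultures, so the p-values cover only how far these arrays differ, and that spread may be technical.

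A collagen molecule is a triple helix of alpha chains, which can be alike or be products of different genes. Fibrillar collagens form the fibres of bone, cartilage and skin, type IV collagen forms the sheet-like network of basement membranes, and FACIT collagens, such as type XII, lie on the surface of fibres. Other collagens form beaded filaments (type VI), short chain networks (types VIII and X) or anchoring fibrils (type VII), or carry large non-helical ends that are cut off as separate proteins (types XV and XVIII). In bone marrow, collagens made by stromal cells are part of the matrix on which blood cells develop.

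The values are normalized intensities on a linear scale, with array medians between 41.77 and 44.99, and each array had 34.3 to 36.3% of its probe sets at 100 or more, the minimum used below. Between the arrays of a group the median absolute log2 difference over genes was 0.0686 in co-culture, 0.0694 in OP9, 0.0885 in MC3T3 and 0.143 in NIH3T3 cells. The labels were set against marker genes. Of 6 genes of marrow stroma, 5 reached 100 on both arrays in co-cultured OP9, OP9 and MC3T3 cells and 4 in NIH3T3 cells. None of the 3 osteoblast markers that could be named (Alpl, Ibsp and Sp7) reached 100 on both arrays of any group, MC3T3 included, and their sum lay between 104 and 108 on the MC3T3 arrays. Of 6 fibroblast genes, 4 reached 100 on both arrays in co-cultured OP9 cells, 3 in OP9 cells, 6 in MC3T3 and 3 in NIH3T3 cells, so that in the line labelled as fibroblasts 3 of them (Dcn, Lum and Thy1) were below it. One MC3T3 array is described as coming from sorted cells.

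Of the 42 collagen chain genes, 23 reached 100 on at least 2 arrays and were tested, each through the probe set with its highest mean over all arrays. They were 9 of 11 fibrillar genes, 4 of 6 genes of basement membrane collagen, 2 of 9 FACIT genes and 8 of 16 others. On both arrays of a group, 19 genes reached 100 in co-cultured OP9 cells, 20 in OP9, 21 in MC3T3 and 17 in NIH3T3 cells. In all 4 groups 14 genes did so, and 9 did so in 1 to 3 groups. A further 18 genes reached 100 on no array. Among them were Col4a3 and Col4a4, the type IV chains known from the kidney filter, with 13.2 to 29 on all arrays, and Col11a2, a chain of cartilage fibres, with 25.5 to 39. Just outside the minimum lay Col9a1, with 120.1 and 61.9 in NIH3T3 cells, Col14a1, with 74.1 and 99.7 in NIH3T3 cells, and Col25a1, with no value above 98.7. Just inside it were Col7a1, Col8a2 and Col15a1, each of which reached 100 on both arrays of 1 group only, so that the groups had to differ in them. Each of the 3 is named beside the counts that hold it.

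**Figure D1:**
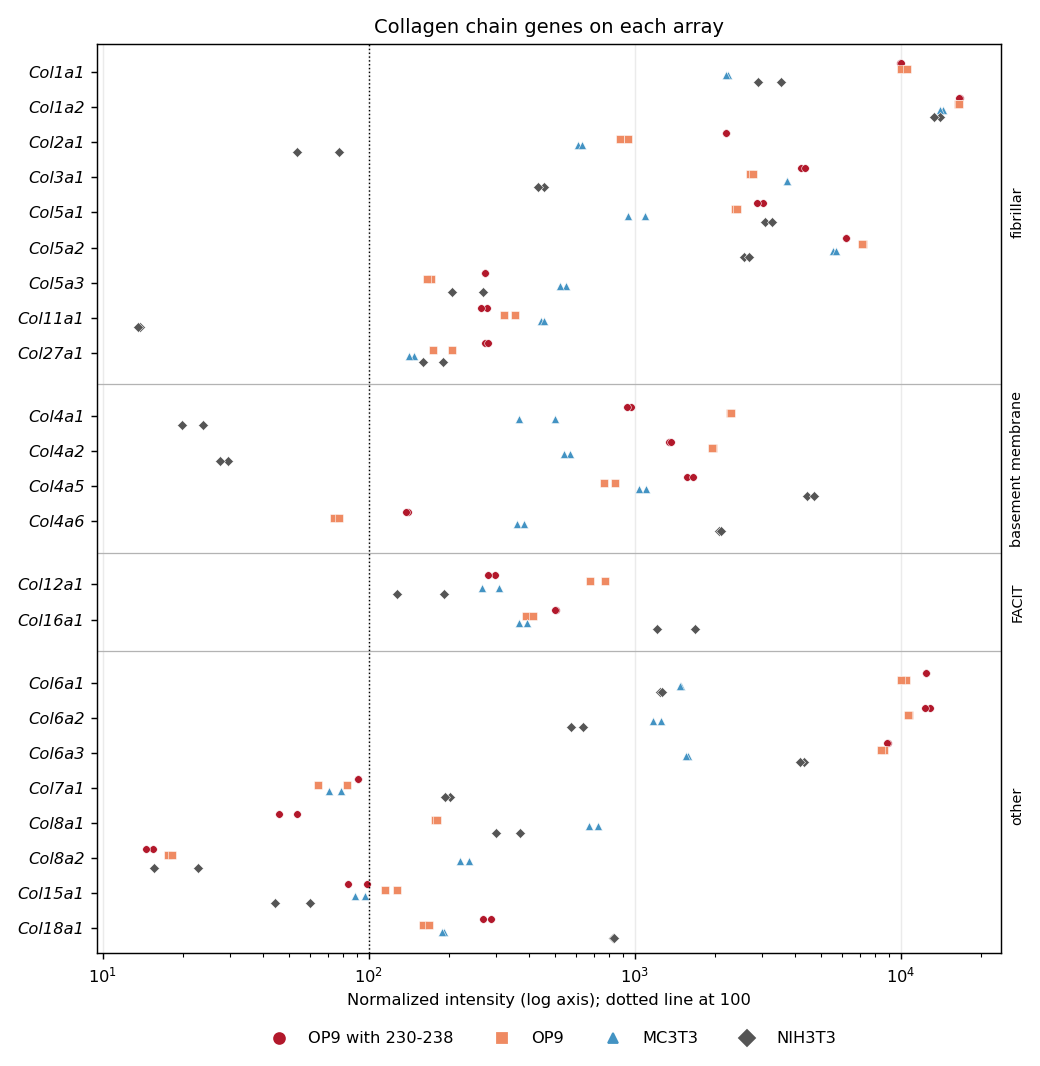
Normalized intensity (log axis) of the 23 tested collagen chain genes on each of the 8 arrays, 1 point per array, with the groups given by colour and shape and a dotted line at 100. Col4a1, Col4a2, Col11a1 and Col2a1 lie above 100 on all OP9 and MC3T3 arrays and below it on both NIH3T3 arrays.

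OP9 cells differed from NIH3T3 cells in most of these genes. A gene was called when its limma p, adjusted over all 10084 genes tested, was below 0.05 and its difference at least 2-fold. Of the 23 collagen chain genes, 12 were called higher in OP9 cells, where 20.5% of all genes were, and 5 lower, where 10.3% of all genes were. The 12 hold Col15a1 and the 5 hold Col7a1, which passed the minimum through 1 group. The median log2 difference was 1.0 for the collagen genes and 0.16 for all genes tested. Of the fibrillar genes 5 were higher and none lower, of the type IV genes 2 were higher and 2 lower, of the FACIT genes 1 was higher and 1 lower, and of the others 4 were higher and 2 lower.

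Against MC3T3 cells, OP9 cells had 8 collagen chain genes called higher, beside 10.5% of all genes, and 4 lower, beside 9.41% of all genes, with Col8a2 among the 4. All 3 tested chains of type VI collagen and both tested chains of the pair Col4a1 and Col4a2 were among the higher ones. The median log2 difference was 0.35 for the collagen genes and 0.03 for all genes. MC3T3 cells set against NIH3T3 cells had 10 higher, beside 17.8% of all genes, and 7 lower, beside 9.65% of all genes, with a median of 0.85 and of 0.12 for all genes. Col8a2 was among the 10 and Col7a1 among the 7. After quantile normalization 7 were higher, beside 1560 of all 10091 genes, where 1794 of 10084 were higher as deposited. In either direction, 73.9% of the collagen genes and 30.8% of all genes were called between OP9 and NIH3T3 cells, 52.2% and 19.9% between OP9 and MC3T3 cells, and 73.9% and 27.4% between MC3T3 and NIH3T3 cells. These comparisons share arrays, so their counts are not independent of each other.

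**Figure D2:**
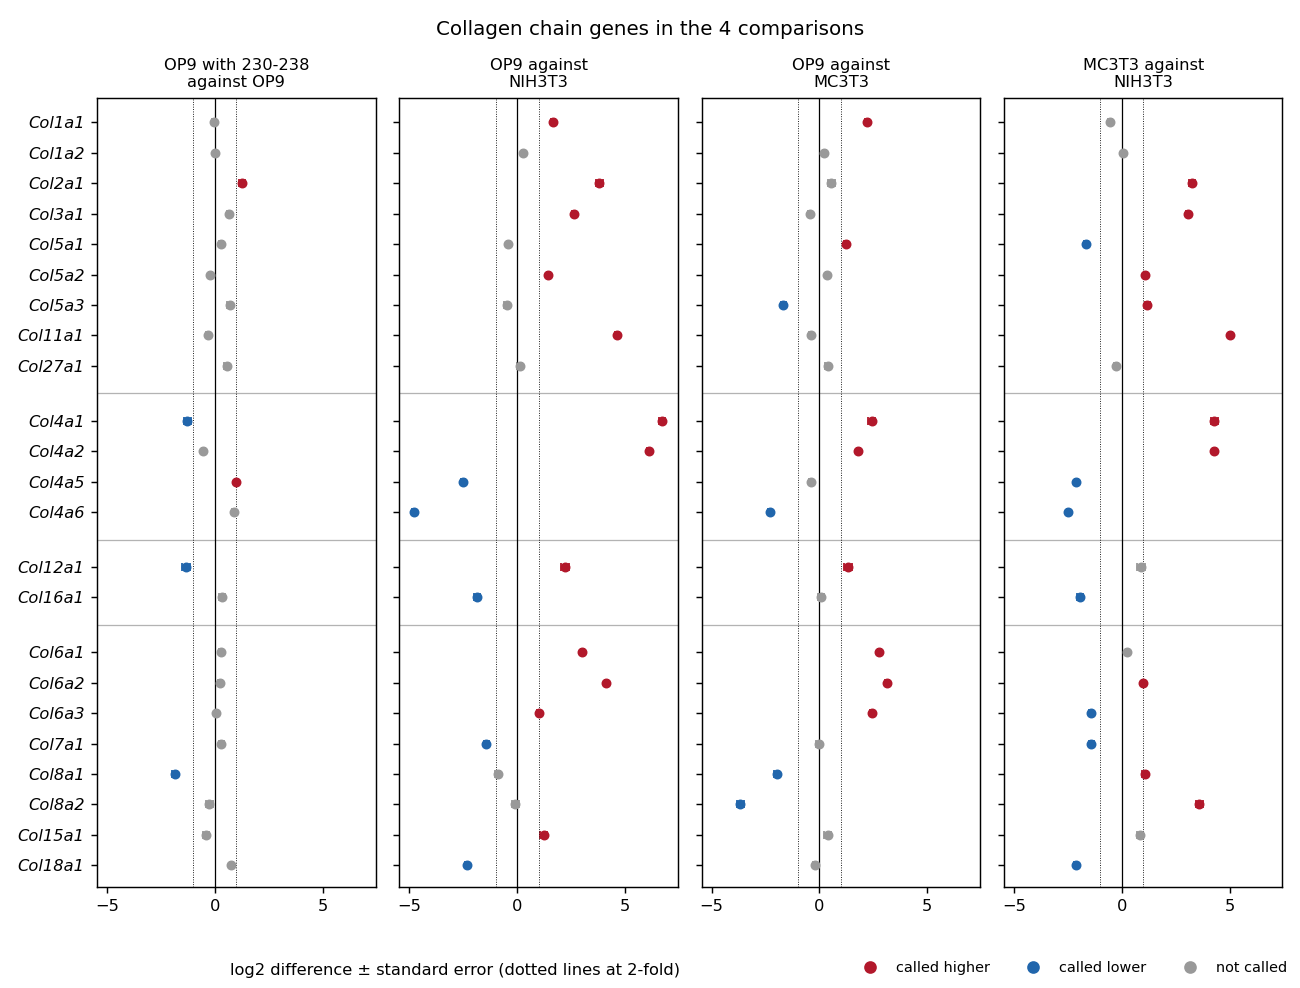
Log2 difference with its standard error from limma (x axis) of the 23 tested collagen chain genes (y axis) in the 4 comparisons, 1 panel each, with dotted lines at 2-fold and the calls in colour. The largest differences are those of Col4a1 (6.72) and Col4a2 (6.10) between OP9 and NIH3T3 cells, and in co-culture the differences lie between -1.85 and 1.27.

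The 4 tested type IV genes form 2 pairs that lie next to each other in the genome, Col4a1 with Col4a2 on chromosome 8 and Col4a5 with Col4a6 on chromosome X, and the pairs differed in opposite directions between the lines. Each pair is read from opposite strands. The promoter windows of these genes are shown to describe the pairs, and their part in the levels was not tested. Promoter windows are those of RefSeq on GRCm38.p6, with 250 bases before a gene's start and 50 from it. They were found for 33 of the 42 genes. The windows of Col4a1 (chr8:11312777-11313076, minus strand) and Col4a2 (chr8:11312555-11312854, plus strand) share 78 bases, written in capitals, and the starts used for them lie 21 bases apart.
Col4a1: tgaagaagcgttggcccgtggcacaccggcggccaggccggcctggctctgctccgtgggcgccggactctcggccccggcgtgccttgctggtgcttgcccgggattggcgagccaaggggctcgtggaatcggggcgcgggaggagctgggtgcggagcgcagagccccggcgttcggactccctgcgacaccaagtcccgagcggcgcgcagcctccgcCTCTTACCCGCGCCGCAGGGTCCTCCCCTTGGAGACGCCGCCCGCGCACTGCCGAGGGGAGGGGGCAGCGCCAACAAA
Col4a2: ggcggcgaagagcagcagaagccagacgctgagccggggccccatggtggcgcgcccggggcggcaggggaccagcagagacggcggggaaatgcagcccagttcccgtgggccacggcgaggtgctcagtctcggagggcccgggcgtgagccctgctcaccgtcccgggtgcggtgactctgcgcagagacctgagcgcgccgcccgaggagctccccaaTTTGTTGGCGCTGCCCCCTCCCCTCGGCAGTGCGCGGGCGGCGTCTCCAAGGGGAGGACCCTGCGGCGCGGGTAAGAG
The starts used for Col4a5 (chrX:141475169-141475468, plus strand) and Col4a6 (chrX:141474027-141474326, minus strand) lie 1343 bases apart and their windows do not overlap. In these the capitals mark matches to the CCAAT box (letters CCAAT) and to the GC box (letters GGGCGG), each searched on both strands.
Col4a5: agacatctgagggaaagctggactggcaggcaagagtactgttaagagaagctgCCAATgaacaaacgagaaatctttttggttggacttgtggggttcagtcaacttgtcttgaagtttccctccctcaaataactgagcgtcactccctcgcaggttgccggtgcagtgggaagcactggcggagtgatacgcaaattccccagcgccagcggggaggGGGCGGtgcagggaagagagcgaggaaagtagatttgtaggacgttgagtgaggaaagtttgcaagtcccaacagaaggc
Col4a6: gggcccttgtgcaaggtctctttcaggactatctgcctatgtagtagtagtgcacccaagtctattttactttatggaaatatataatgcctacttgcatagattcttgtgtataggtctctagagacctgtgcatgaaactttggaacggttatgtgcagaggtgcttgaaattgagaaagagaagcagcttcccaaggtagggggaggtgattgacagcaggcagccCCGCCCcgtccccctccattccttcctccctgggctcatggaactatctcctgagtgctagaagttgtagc
A CCAAT box was found in the windows of Col4a1, Col4a2 and Col4a5 and not in that of Col4a6, and 37.4% of all 32851 windows hold one. All 4 windows hold a GC box, as 35.7% of all windows do. Of the 36 windows of collagen chain genes, 13 (36.1%) hold a CCAAT box, 22 (61.1%) a GC box and 5 (13.9%) the letters TATAAA of the TATA box, which 13.6% of all windows hold. The median GC content was 59.8% in the collagen windows and 52.7% in all windows. A match to these letters is a description of the sequence and does not show a bound factor.

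Col4a1 and Col4a2 encode the chains that make up the type IV collagen found in nearly all basement membranes. Col4a1 read 967.4 and 937.4 in co-cultured OP9 cells, 2283 and 2297.5 in OP9, 366.7 and 499.4 in MC3T3 and 19.9 and 23.8 in NIH3T3 cells. Col4a2 read 1342.7 and 1367.6 in co-cultured OP9 cells, 1969.9 and 1944.7 in OP9, 572.9 and 544.1 in MC3T3 and 29.5 and 27.5 in NIH3T3 cells. The order of the groups was the same for both genes, no arrays of different groups overlapped, and in NIH3T3 cells both lay under the array median. Col4a1 was higher in OP9 cells than in NIH3T3 cells with a log2 difference of 6.72 (standard error 0.147, limma adjusted p = 1.26e-08), and Col4a2 with one of 6.10 (standard error 0.0693, adjusted p = 1.19e-09). With 16 added to every value before the log, the differences were 5.93 and 5.47. No fold is given here, since the NIH3T3 values lie near the bottom of the scale, where background signal makes up an unknown part. A further probe set of Col4a1, with 55.8 and 43.2 in NIH3T3 cells, gave a log2 difference of 4.92, and the mean of both probe sets 5.82. In OP9 set against MC3T3 cells the differences were 5.35-fold for Col4a1 (adjusted p = 3.91e-06) and 3.51-fold for Col4a2 (adjusted p = 3.34e-07), and in MC3T3 against NIH3T3 cells both were called higher with log2 differences of 4.30 (adjusted p = 1.56e-07) and 4.29 (adjusted p = 4.48e-09), or 3.55 and 3.69 with 16 added. For Col4a1 the mean of the probe sets gave 3.22 there.

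Col4a5 and Col4a6 encode chains that join in the basement membranes of smooth muscle and some epithelia, and Col4a5 also joins Col4a3 and Col4a4 in the kidney. Col4a5 read 1573.1 and 1651.3 in co-cultured OP9 cells, 843.9 and 769.2 in OP9, 1097.6 and 1041.3 in MC3T3 and 4430.6 and 4729.9 in NIH3T3 cells. Col4a6 read 140.8 and 137.5 in co-cultured OP9 cells, 73.9 and 77 in OP9, 362.4 and 383.8 in MC3T3 and 2072.3 and 2117.1 in NIH3T3 cells. Both were highest in NIH3T3 cells, the line in which Col4a1 and Col4a2 were lowest, and lowest in OP9 cells. Col4a6 was 27.8-fold lower in OP9 cells than in NIH3T3 cells (log2 difference -4.80, standard error 0.0672, limma adjusted p = 2.23e-09) and Col4a5 5.68-fold lower (-2.51, standard error 0.0787, adjusted p = 8.09e-08). In OP9 set against MC3T3 cells Col4a6 was 4.94-fold lower (adjusted p = 8.24e-08), and Col4a5 had a log2 difference of -0.41 and was not called. In MC3T3 set against NIH3T3 cells Col4a6 was 5.62-fold and Col4a5 4.28-fold lower (adjusted p = 4.91e-08 and 2.51e-07).

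**Figure D3:**
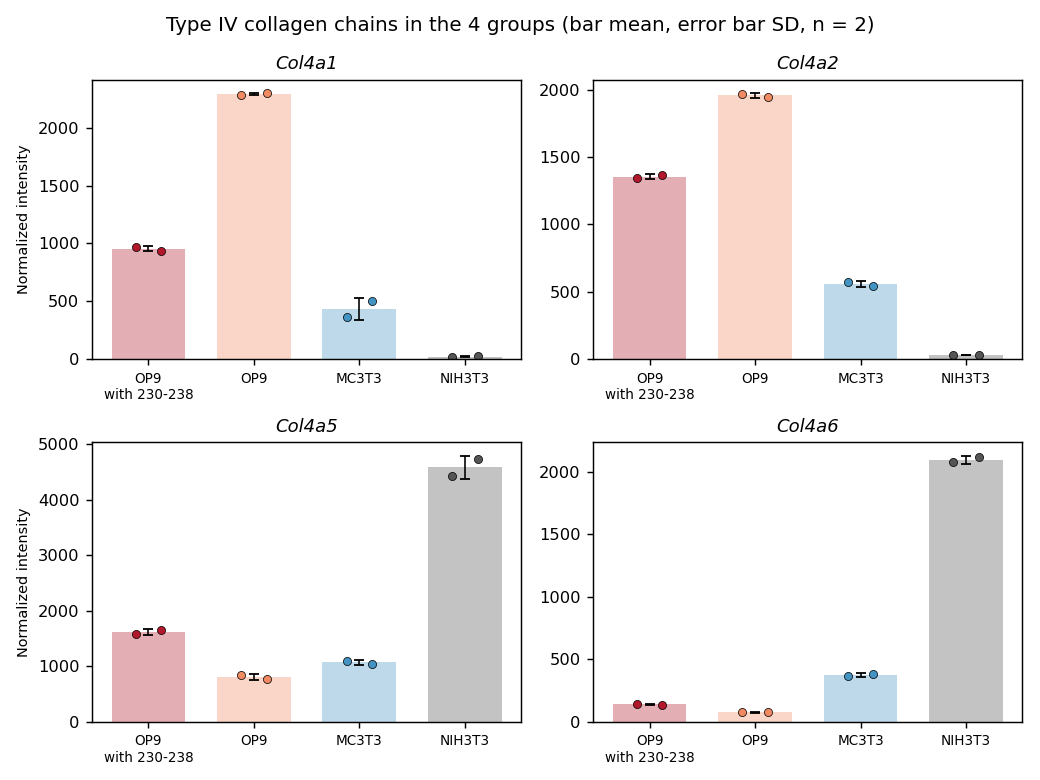
Normalized intensity (y axis) of the 4 tested type IV collagen genes in the 4 groups (x axis), with 1 point per array, bars at the mean and error bars of 1 SD (n = 2). Col4a1 and Col4a2 are highest in OP9 cells and below 30 in NIH3T3 cells, and Col4a5 and Col4a6 are highest in NIH3T3 cells.

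Of the fibrillar genes, Col1a1 and Col1a2 encode the chains of type I collagen, which forms the fibres of bone, tendon and skin. Col1a1 read 9966.4 and 10004.2 in co-cultured OP9 cells, 9986 and 10568.4 in OP9, 2238.9 and 2200.3 in MC3T3 and 3542.2 and 2906.1 in NIH3T3 cells. Col1a2 read 16741.2 and 16495.9 in co-cultured OP9 cells, 16444.9 and 16586.4 in OP9, 14354.8 and 14084.5 in MC3T3 and 14019.9 and 13304.2 in NIH3T3 cells. Col1a1 therefore separated the OP9 arrays from those of both other lines, while the Col1a2 values of all arrays lay close together, within the range 13304.2 to 16741.2 on arrays whose highest value was between 22382 and 25141. Col1a1 was 3.2-fold higher in OP9 cells than in NIH3T3 cells (limma adjusted p = 2.1e-06) and 4.63-fold higher than in MC3T3 cells (adjusted p = 7.44e-07). Its other probe set was called higher against NIH3T3 cells (log2 difference 1.37) but not against MC3T3 cells (0.90), and the mean of both gave 1.55 against MC3T3 cells, where the first gave 2.21. The log2 differences of Col1a2 were 0.27 and 0.22 in these comparisons, and it was called in none of the 4. A further probe set of Col1a2, with 6150.2 to 8552.6 over all arrays, was not called either, and another, with 89.7 and 81.8 in OP9, 40.1 and 42.2 in MC3T3 and 298.2 and 413 in NIH3T3 cells, went the other way between OP9 and NIH3T3 cells (log2 difference -2.03), so the gene's probe sets disagree.

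Col3a1, whose chains form type III collagen in the fibres of vessels and soft organs, read 4221.3 and 4383.5 in co-cultured OP9 cells, 2722 and 2786.8 in OP9, 3727.5 and 3745.2 in MC3T3 and 454.5 and 433.3 in NIH3T3 cells. It was 6.21-fold higher in OP9 (limma adjusted p = 2.37e-08) and 8.42-fold higher in MC3T3 (adjusted p = 1.59e-08) than in NIH3T3 cells. Its neighbour on chromosome 1, Col5a2, a chain of the type V collagen that sits inside type I fibres, read 6227.2 and 6233.9 in co-cultured OP9 cells, 7242.4 and 7120.5 in OP9, 5558.7 and 5721.2 in MC3T3 and 2572.6 and 2696.7 in NIH3T3 cells, and was 2.73-fold higher in OP9 cells than in NIH3T3 cells (adjusted p = 4.78e-07, log2 difference 1.45, and 2.84 by its other probe set). Both genes were thus lowest in NIH3T3 cells and differed less than 2-fold between OP9 and MC3T3 cells. The partner chains of Col5a2 had other patterns. Col5a1 read 3025.1 and 2874.7 in co-cultured OP9 cells, 2388 and 2430.1 in OP9, 942.4 and 1090.8 in MC3T3 and 3085.4 and 3287.2 in NIH3T3 cells, which made it lowest in MC3T3 cells. Col5a3 read 273.3 and 272.6 in co-cultured OP9 cells, 170.9 and 165.1 in OP9, 553 and 521.5 in MC3T3 and 269.6 and 206.3 in NIH3T3 cells, which made it highest there. OP9 cells had 2.38-fold more Col5a1 signal (adjusted p = 8.74e-06) and 3.2-fold less Col5a3 signal (adjusted p = 9.72e-06) than MC3T3 cells, and neither was called between OP9 and NIH3T3 cells. The other probe sets of Col5a1 missed the 2-fold minimum against MC3T3 cells, with log2 differences of 0.92 and 0.99.

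Col2a1 and Col11a1 encode chains of the fibres of cartilage. Col2a1 read 2203.9 and 2199.6 in co-cultured OP9 cells, 878 and 946.3 in OP9, 611.3 and 632.8 in MC3T3 and 77.4 and 53.7 in NIH3T3 cells. Col11a1 read 278.6 and 265.4 in co-cultured OP9 cells, 323.4 and 354.1 in OP9, 442.5 and 456.3 in MC3T3 and 13.8 and 13.6 in NIH3T3 cells. For both genes the NIH3T3 arrays were below 100 and every other array was above it. Col2a1 was 14.1-fold higher in OP9 cells than in NIH3T3 cells (limma adjusted p = 2.74e-07) and 9.65-fold higher in MC3T3 cells than there (adjusted p = 7.28e-07). Col11a1, which lay under the array median in NIH3T3 cells, had log2 differences of 4.63 and 5.04 in these comparisons (adjusted p = 3.21e-09 in both), and of 3.58 and 3.97 with 16 added to every value. Neither was called between OP9 and MC3T3 cells. Col27a1, the remaining fibrillar gene tested, ranged from 142.3 to 280.9 and was called in no comparison.

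The tested genes of type VI collagen, whose beaded filaments surround many connective tissue cells, were highest in OP9 cells with and without pre-B cells. Col6a4, with 21.2 to 38.4 over all arrays, and Col6a5, with 9.6 to 14.6, reached 100 on no array and were not tested. Col6a1 read 12414.8 and 12422.6 in co-cultured OP9 cells, 10436.9 and 10040.5 in OP9, 1497.5 and 1482.3 in MC3T3 and 1241.8 and 1271.4 in NIH3T3 cells. Col6a2, its neighbour on chromosome 10, read 12886.5 and 12367.4 in co-cultured OP9 cells, 10723.4 and 10676.1 in OP9, 1172.4 and 1259.3 in MC3T3 and 578.2 and 636.3 in NIH3T3 cells. Col6a3 on chromosome 1 read 8950.7 and 8899.2 in co-cultured OP9 cells, 8633.3 and 8401 in OP9, 1591.8 and 1562.6 in MC3T3 and 4336 and 4171.3 in NIH3T3 cells. In each of these genes the lowest OP9 array lay above the highest array of both other lines, and MC3T3 and NIH3T3 cells stood in the opposite order for Col6a3 from that for Col6a1 and Col6a2. Relative to MC3T3 cells the folds in OP9 cells were 6.87 for Col6a1, 8.81 for Col6a2 and 5.40 for Col6a3, with limma adjusted p-values of 2.66e-08, 4.05e-08 and 5.47e-08. Relative to NIH3T3 cells they were 8.15, 17.6 and 2.0, with adjusted p-values of 1e-08, 6.29e-09 and 3.31e-06. The last of these was at the 2-fold minimum and was lost in several alternatives.

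Col8a1 and Col8a2 encode the chains of type VIII collagen, a short chain network known from vessel walls and the cornea. Col8a1 read 45.8 and 53.8 in co-cultured OP9 cells, 178.1 and 180.8 in OP9, 675.6 and 730.5 in MC3T3 and 369.6 and 301 in NIH3T3 cells. Col8a2 read 15.5 and 14.5 in co-cultured OP9 cells, 17.6 and 18.2 in OP9, 220.1 and 237.5 in MC3T3 and 22.9 and 15.6 in NIH3T3 cells. Both chains were highest in MC3T3 cells, the only group in which Col8a2 reached 100. In OP9 set against MC3T3 cells Col8a1 was 3.91-fold lower (limma adjusted p = 3.78e-06). In MC3T3 set against NIH3T3 cells it was 2.11-fold higher (adjusted p = 8.49e-05), a call that was lost after quantile normalization (log2 difference 0.95).

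Several genes of other types were highest in NIH3T3 cells. Col16a1, a FACIT gene, read 504.6 and 501.5 in co-cultured OP9 cells, 389.8 and 412.8 in OP9, 365.7 and 394.1 in MC3T3 and 1689.2 and 1217 in NIH3T3 cells. Col18a1, from whose end the protein endostatin is cut, read 268.5 and 287.6 in co-cultured OP9 cells, 160.3 and 168 in OP9, 192.1 and 188.4 in MC3T3 and 830.8 and 833.7 in NIH3T3 cells. Col7a1, the chain of the anchoring fibrils of skin, read 90.8 and 91.1 in co-cultured OP9 cells, 64.6 and 82.9 in OP9, 78.5 and 71.1 in MC3T3 and 201.9 and 193.9 in NIH3T3 cells. For all 3 genes both NIH3T3 arrays lay above every other array, and in Col7a1 they were the only ones above 100. In OP9 cells set against NIH3T3 cells Col16a1 was 3.57-fold and Col18a1 5.07-fold lower (limma adjusted p = 9.62e-06 and 5.5e-08), and neither was called between OP9 and MC3T3 cells. The value of Col18a1 (log2 difference -2.34) comes from a probe set of the kind that can match several transcripts, and its other probe set was called lower with -1.13. In MC3T3 set against NIH3T3 cells these gave -2.13 and -1.11. Col12a1, a FACIT gene of tendon and other dense tissue, read 297.8 and 280.2 in co-cultured OP9 cells, 774.5 and 680 in OP9, 310.1 and 267.6 in MC3T3 and 128.1 and 191.7 in NIH3T3 cells. It was 4.63-fold higher in OP9 cells than in NIH3T3 cells (adjusted p = 1.32e-05) and 2.52-fold higher than in MC3T3 cells (adjusted p = 0.000349). Its other probe set was called in both as well, with a smaller log2 difference against NIH3T3 cells (1.05, where the first gave 2.21). Col15a1 read 44.4 to 127.6 over all arrays and reached 100 on both arrays of OP9 cells only.

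OP9 cells grown with 230-238 cells differed from OP9 cells in 5 of the 23 tested collagen chain genes. Of these, 2 were called higher, beside 2.71% of all genes, and 3 lower, beside 2.97% of all genes, and in either direction 21.7% of the collagen genes and 5.67% of all genes were called. The median log2 difference was 0.24 for the collagen genes and -0.05 for all genes, and the median absolute difference was 0.41 and 0.23. Col8a1, with 45.8 and 53.8 in co-culture against 178.1 and 180.8 in OP9 cells, fell most, by 3.62-fold (log2 difference -1.85, standard error 0.119, limma adjusted p = 2.65e-05). Of its other probe sets one was called as well (-2.46) and one was not (-0.84), and without co-culture replicate 2, where another probe set represents the gene, the difference was -2.51. Col12a1, with 297.8 and 280.2 against 774.5 and 680, was 2.51-fold lower (-1.33, standard error 0.18, adjusted p = 0.000933), and its other probe set above the minimum was called lower too. Col4a1, with 967.4 and 937.4 against 2283 and 2297.5, was 2.41-fold lower (-1.27, standard error 0.147, adjusted p = 0.000455), while its second probe set had a log2 difference of -0.91 and was not called. Its partner Col4a2 moved the same way but less than 2-fold, at -0.53 (adjusted p = 0.000791).

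Col2a1, the chain of type II collagen of cartilage, rose 2.42-fold in co-culture, with 2203.9 and 2199.6 against 878 and 946.3 in OP9 cells (log2 difference 1.27, standard error 0.152, limma adjusted p = 0.00053). Col4a5 was at the 2-fold minimum, with 1573.1 and 1651.3 in co-culture against 843.9 and 769.2 (1.0, standard error 0.0787, adjusted p = 7.48e-05), and dropped below it in several alternatives and by its other probe set, at 0.84. Its neighbour Col4a6 was at 0.88 (adjusted p = 6.23e-05). In this comparison, as between the lines, the members of each type IV pair lay on the same side of 0 and the pairs on opposite sides, and the same OP9 arrays stand in 3 of the 4 comparisons. With no minimum fold, 10 genes were higher and 6 lower, beside 1674 higher and 2640 lower of all 10084 genes. The higher ones included Col18a1 (log2 difference 0.76), Col5a3 (0.70), Col3a1 (0.64) and Col27a1 (0.55), each with both co-culture arrays above both OP9 arrays. The lower ones included Col4a2 (-0.53), Col11a1 (-0.32) and Col5a2 (-0.2), each with both co-culture arrays below both OP9 arrays. The arrays of Col1a1 and Col1a2 overlapped between the groups, and their log2 differences were -0.04 (standard error 0.0982) and 0.01 (standard error 0.0645). Those of the tested type VI genes lay between 0.07 and 0.28. Col10a1, known from cartilage about to turn into bone, was below the minimum and not tested, with 25.7 and 26.3 in co-culture against 69.3 and 73.6 in OP9 cells.

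Markers of other cells moved with the co-culture. The summed level of the 5 fat cell genes that could be named was 11752 to 11857 in co-culture against 34452 to 34481 in OP9 cells, and all 5 reached 100 in both groups. That of 5 leukocyte genes was 366 to 370 against 153 to 163, 2 of them reached 100 on both co-culture arrays and 0 on both OP9 arrays, and Ptprc, the general leukocyte marker, read 34.6 and 31.1 against 8.9 and 8.6. Vpreb1, part of the pre-B cell receptor, read 77.7 and 76 against 25.8 and 21.6, while Cd79a, part of the same receptor, read 38 and 51.4 against 33.8 and 34. The summed level of 10 pre-B cell genes, mostly from Ebf1, was 1862 to 2101 against 2354 to 2598. Ebf1 itself read 1267 and 1530.7 against 2146.1 and 1922.1. Every other gene of that list had a higher mean in co-culture, and all of these but Ighm lay below 100 in both groups. The sums of the other lists were 37299 to 37352 against 37694 to 39106 for 6 genes of marrow stroma, 49286 to 49507 against 45569 to 45806 for 6 fibroblast genes, 115 to 119 against 129 to 143 for 3 osteoblast genes, 562 to 583 against 460 to 495 for 6 macrophage genes, 527 to 718 against 340 to 372 for 4 epithelial genes and 106 to 115 against 110 to 111 for 5 endothelial genes. The part of these markers in the collagen differences was not tested. Fewer cells that make a transcript and less of it per cell cannot be told apart in these samples. Between the lines the fat cell sum was 34452 to 34481 in OP9, 98 to 104 in MC3T3 and 4730 to 4978 in NIH3T3 cells, and its part in those differences was not tested either.

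**Figure D4:**
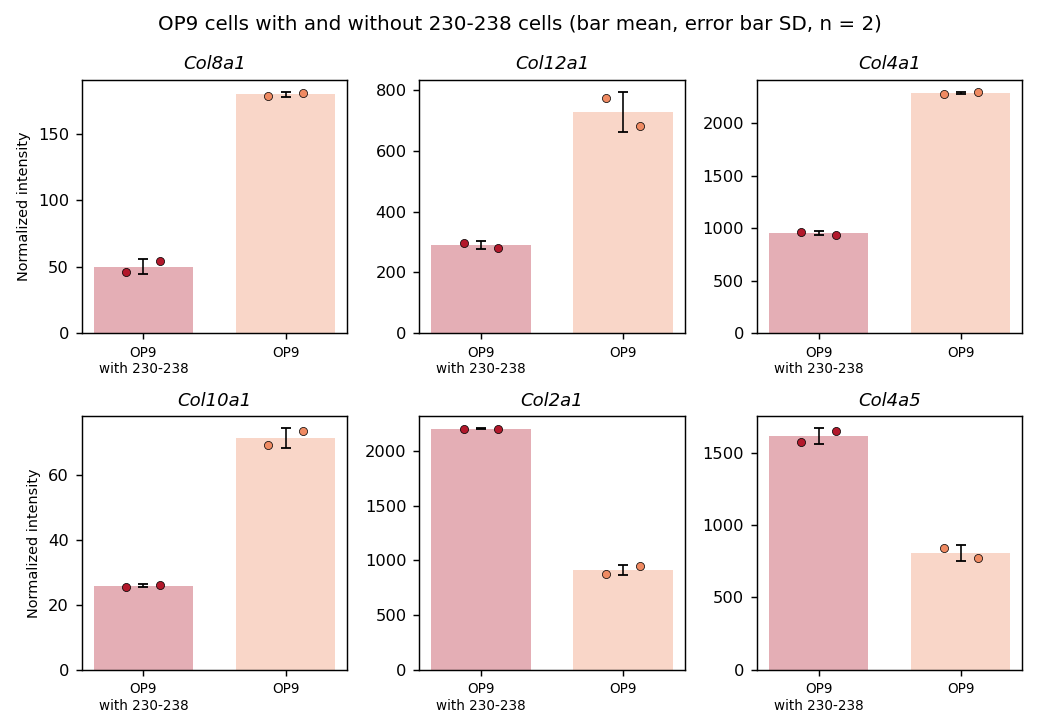
Normalized intensity (y axis) of 6 collagen chain genes in OP9 cells with and without 230-238 cells (x axis), with 1 point per array, bars at the mean and error bars of 1 SD (n = 2). Col8a1, Col12a1 and Col4a1 were called lower in co-culture, Col2a1 and Col4a5 were called higher, and Col10a1 was below the minimum and not tested. In none of the 6 do the arrays of the groups overlap.

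New collagen chains are hydroxylated on proline and lysine, folded by chaperones and exported before they form fibres. Of 20 genes of modification and folding, 18 were tested. In co-culture 1 was called higher and none lower, beside 2.71% and 2.97% of all genes. It was P4ha2, a catalytic chain of prolyl 4-hydroxylase, with 1792.3 and 1818.1 in co-culture against 542.3 and 526.2 in OP9 cells (3.38-fold, limma adjusted p = 2.96e-06). P4ha1, the related chain, read 1574.9 and 1584.4 against 911.1 and 827.1, and passed the adjusted p (0.000123) at 1.82-fold. P4ha3 (log2 difference 0.15) and P4hb, the partner chain of the enzyme (0.22), were not called.

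Between OP9 and NIH3T3 cells, 8 of these 18 genes were called higher and 4 lower, beside 20.5% and 10.3% of all genes. Crtap, a partner of the prolyl 3-hydroxylase complex, read 2553.7 and 2899.3 in OP9 against 24.7 and 23.1 in NIH3T3 cells and was called higher (limma adjusted p = 1.6e-09). P3h3, of the family of prolyl 3-hydroxylases, read 630.4 and 646.6 against 31.6 and 20.2 and was called higher too. Fkbp14, a folding enzyme of the secretory pathway, was 15.6-fold higher. The 4 lower genes were the lysyl hydroxylases Plod1 (5.95-fold) and Plod2 (2.63-fold) and the prolyl 4-hydroxylase chains P4ha2 (4.46-fold) and P4ha1 (2.58-fold). Hydroxylase genes therefore lay on both sides. Serpinh1, the collagen chaperone, had a log2 difference of -0.03 and was not called. Between OP9 and MC3T3 cells 3 of the 18 were higher and 1 lower, beside 10.5% and 9.41% of all genes. Between MC3T3 and NIH3T3 cells 8 were higher and 3 lower, beside 17.8% and 9.65% of all genes, with Crtap at 2064 and 2216.8 in MC3T3 cells.

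**Figure D5:**
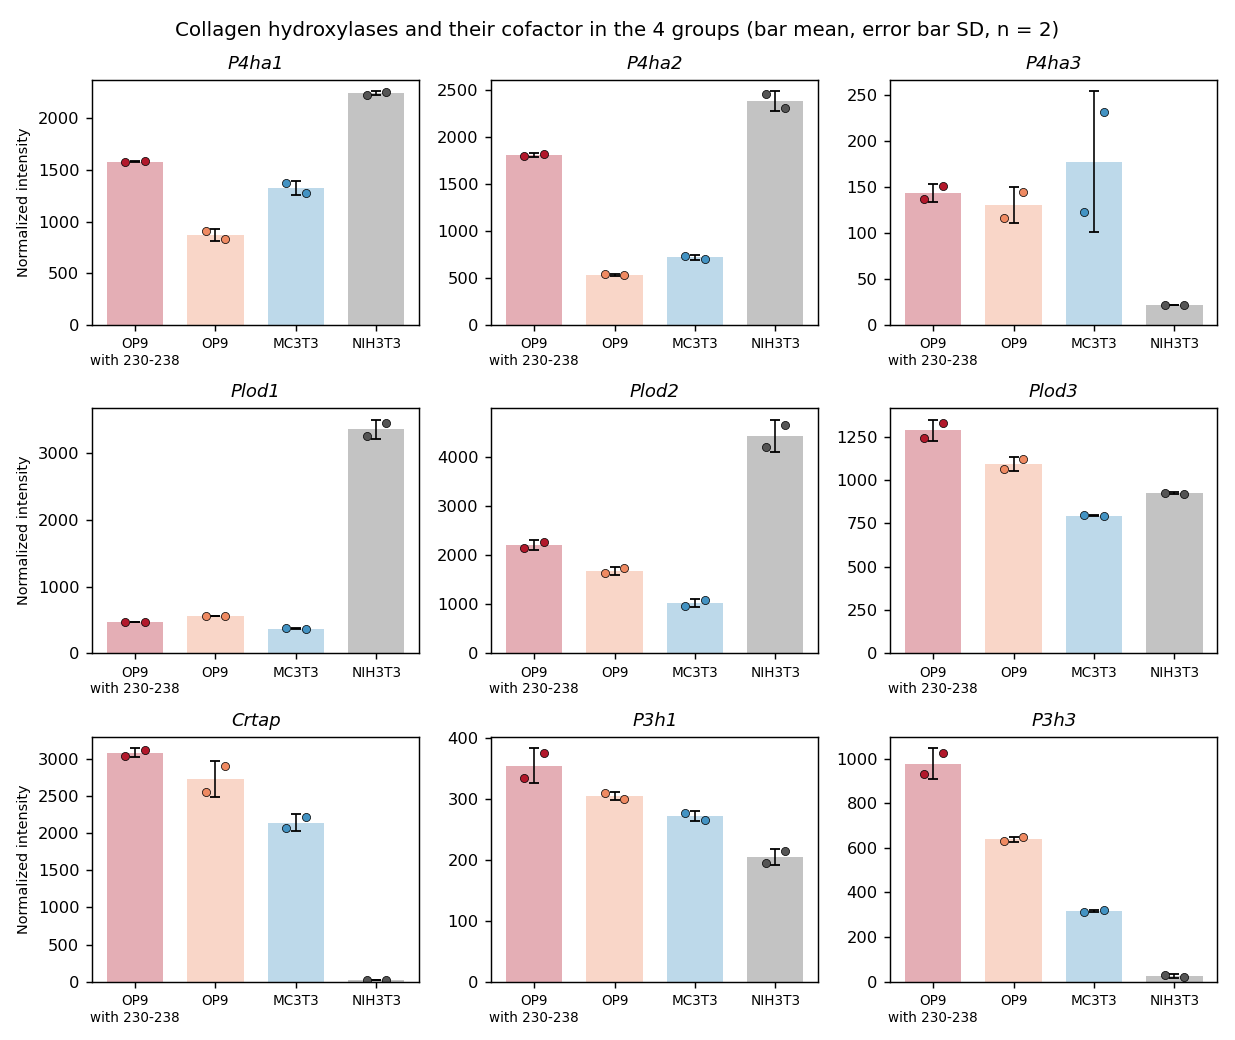
Normalized intensity (y axis) of 9 genes of proline and lysine hydroxylation of collagen in the 4 groups (x axis), with 1 point per array, bars at the mean and error bars of 1 SD (n = 2). P4ha2 is higher in co-culture than in OP9 cells, Plod1 is highest in NIH3T3 cells, and Crtap and P3h3 are below 100 there.

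Of 16 genes of procollagen export and trimming, 10 were tested and none was called in co-culture, where 5.67% of all genes were called in either direction. Bmp1, the protease that removes the C-terminal propeptide, was 3.75-fold higher in OP9 cells than in NIH3T3 cells (limma adjusted p = 2.46e-06), the only call of that comparison, beside 30.8% of all genes called in either direction. Pcolce2, an enhancer of this protease, read 7.9 and 11.1 in OP9, 311.2 and 306.3 in MC3T3 and 14.5 and 14.6 in NIH3T3 cells, so that it stood above 100 in MC3T3 cells only and had to differ once it passed the minimum. It was the only call between OP9 and MC3T3 cells, where 19.9% of all genes were called in either direction. Bmp1 and Pcolce2 were the calls between MC3T3 and NIH3T3 cells, both higher, beside 17.8% of all genes.

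Of 12 collagen receptors and uptake receptors, 6 were tested. In co-culture 2 were called lower, beside 2.97% of all genes. One was Cd36, a collagen receptor of platelets that also takes up fatty acids and is high in fat cells, with 133 and 134.1 against 1884.7 and 2042.4 in OP9 cells (14.7-fold, limma adjusted p = 1.29e-06). The other was Itga1, a chain of a collagen-binding integrin, with 49.8 and 88.7 against 165.4 and 173.8, which reached 100 on both arrays of OP9 cells only, so that the groups had to differ in it. Of the 6 tested, 4 were higher in OP9 cells than in NIH3T3 cells, beside 20.5% of all genes, and none lower. Against MC3T3 cells 3 were higher, beside 10.5%, and none lower, with Itga1 and Cd36 in both counts. Cd36 read 33.8 and 26.5 in MC3T3 and 20 and 22.8 in NIH3T3 cells. It thus passed the minimum through the OP9 line only and had to differ from the other lines. Mrc2, which takes up collagen fragments and was also in both counts, read 1392.5 and 1428.1 in OP9, 483.3 and 411 in MC3T3 and 254.3 and 217.8 in NIH3T3 cells. Itgb1, the common beta chain of the collagen-binding integrins, was called in no comparison, and no receptor was called between MC3T3 and NIH3T3 cells.

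Of 18 regulators of collagen genes, 13 were tested. In co-culture 2 were called lower, beside 2.97% of all genes. They were the early response factor Egr1, with 854.6 and 881.9 against 5314 and 5623.7 in OP9 cells (6.30-fold, limma adjusted p = 1.29e-06), and Ccn2, a matrix protein also known as connective tissue growth factor, with 627.1 and 758.7 against 1648.1 and 1689.3 (2.42-fold, adjusted p = 7.83e-05). None was called higher. Sox9, which activates Col2a1 in cartilage, read 344.5 and 334.1 in co-culture against 412.8 and 466.5 in OP9 cells and was not called (log2 difference -0.37), while Col2a1 was higher there. Between OP9 and NIH3T3 cells 4 regulators were higher and 1 lower, beside 20.5% and 10.3% of all genes, and between OP9 and MC3T3 cells the counts were the same, beside 10.5% and 9.41%. Fli1, one of the 4 against NIH3T3 cells, reached 100 in OP9 cells only (136.7 and 159.4). Sox5, which acts with Sox9 in cartilage, was among the higher ones in both, with 296 and 307.9 in OP9, 43.4 and 56.5 in MC3T3 and 69.6 and 75.3 in NIH3T3 cells. With 327.7 and 392.3 in co-culture, Sox5 passed the minimum through the OP9 line only, so it had to differ from the other lines. Klf4 was the lower one in both, with 404.5 and 405.9 in OP9, 3562.4 and 3522.7 in MC3T3 and 2333.5 and 2366.6 in NIH3T3 cells. Between MC3T3 and NIH3T3 cells 2 regulators were higher, Fli1 among them, and 2 lower, beside 17.8% and 9.65% of all genes.

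The 42 collagen chain genes lie on 15 chromosomes, and 7 pairs of them are next to each other, of which 4 have both genes tested. In OP9 set against NIH3T3 cells the log2 differences were 2.63 and 1.45 for Col3a1 and Col5a2, 3.03 and 4.14 for Col6a1 and Col6a2, 6.72 and 6.10 for Col4a1 and Col4a2, and -2.51 and -4.80 for Col4a5 and Col4a6, so that both members of each pair were called in the same direction. In MC3T3 set against NIH3T3 cells this held for all but Col6a1 and Col6a2, where Col6a1 (0.25) was not called. In the other comparisons Col3a1 and Col5a2 lay on opposite sides of 0. Their log2 differences were -0.44 and 0.35 in OP9 against MC3T3 cells and 0.64 and -0.2 in co-culture. The members of the other pairs lay on the same side of 0 there. For 14 genes more than 1 probe set reached the minimum, which gave 56 comparisons of a gene. In 44 of these all probe sets had the same call and in 12 they did not, of which 7 were among the 31 in which the gene was called, and no gene had one probe set called higher and another called lower in the same comparison.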

How the data were processed

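The 8 arrays were Affymetrix Mouse Genome 430 2.0 arrays, 2 per group, grouped by the titles in the labels. The deposited values are intensities of 45101 probe sets per array, normalized by the authors and on a linear scale. The methods name dChip and RMA Express, but the sources used here do not give which of them wrote the values or which other arrays were normalized with them. The number of arrays limits the precision, and background signal compresses differences near the bottom of the scale.

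Gene symbols came from the platform annotation: 34958 probe sets had 1 symbol and were used, 932 had several and 9211 none. The test ran on log2 values without a pseudocount. The probe set with the highest mean log2 value stood for its gene, and a minimum of 100 on 2 or more arrays was required. Group means of all 8 arrays were fitted with limma 3.58.1 in R 4.3.3 (lmFit and eBayes, 4 residual degrees of freedom), with Benjamini-Hochberg adjustment over 10084 genes. On data simulated for the co-culture comparison with 10084 genes, 98% of genes raised and 96% of genes lowered 2.5-fold were called, 100% at 4-fold, with 0 false calls. The simulated noise was independent, with the spread of the limma fit, and unchanged genes had no difference at all. These rates therefore check the calculation only and do not cover differences between cultures or in handling.

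The collagen genes, the lists of related genes, the markers and the motifs were chosen with earlier results of these data known. Values on every array are given for up to 5 called collagen genes per direction of a comparison, by fold, their partner chains and Col3a1. From the lists up to 4 called genes per comparison were named, and P4ha1, P4ha3, P4hb, Serpinh1, Itgb1, Sox9 and Col10a1 were named after their values were seen. Genes of the lists with no probe set of their own name were not analysed here. Promoter windows were those of RefSeq on GRCm38.p6, and protein sequences were not used. Alternatives were no minimum level or one of 200, scaling by quantiles or by the median, 16 added to every value, the mean over a gene's probe sets, probe sets tested one by one, no _x_at or _s_at probe sets, no minimum fold, only the arrays compared, the replicate number as a block and leaving out each array.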

Additional observations from a re-analysis of the deposited data

How the results depend on the processing

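Of 51 called differences of a collagen gene, 31 were of genes with several probe sets above the minimum, and in 24 of these all probe sets shared the call. Under the alternatives that represent a gene by 1 value and keep the 2-fold minimum, 45 of the 51 kept their call wherever the gene was tested, and none changed direction. In co-culture the count of higher genes was 1 with median scaling, a pseudocount of 16 or the mean of probe sets, and 1 to 2 when an array was left out, because Col4a5 fell just short of 2-fold (0.98, 0.99 and 0.92, and 0.97 without co-culture replicate 2 and 0.93 without OP9 replicate 2). The count of lower genes in co-culture was 2 with the mean of probe sets, where Col12a1 was no longer tested. With no minimum level it was 4, beside 328 of all 18194 genes. With no minimum fold, 10 genes were higher and 6 lower in co-culture, beside 1674 and 2640 of all 10084 genes. Without that minimum, 8 were lower in OP9 than in the NIH3T3 line, beside 3196 of all genes. Another 8 were lower in OP9 than in MC3T3 cells, beside 3125 of all genes. With each probe set on its own, the counts are of the 40 collagen probe sets above the minimum and not of genes. Of these, 5 were lower in co-culture, 20 higher and 10 lower in OP9 than in the NIH3T3 line, 7 lower in OP9 than in MC3T3 cells, and 16 higher and 12 lower in MC3T3 than in NIH3T3 cells. The shares of all probe sets called were not worked out, so these counts cannot be set against them. When an array was left out, the counts of genes in the other comparisons were 10 to 12 higher and 4 to 6 lower (OP9 against NIH3T3), 8 higher and 3 to 4 lower (OP9 against MC3T3), and 8 to 10 higher and 6 to 7 lower (MC3T3 against NIH3T3). For these fits the shares of all genes were not worked out either. Col7a1, Col8a2 and Col15a1 are no longer tested when an array of their only group above 100 is left out. Col6a3 fell to 0.96 in OP9 against NIH3T3 cells with quantile normalization, 0.98 without OP9 replicate 1 and 0.97 without NIH3T3 replicate 2. Col8a1 was called in the same comparison with quantile normalization (-1.07), the mean of probe sets (-1.08), without co-culture replicate 2 (-1.51), when another of its probe sets represented it, and without NIH3T3 replicate 2 (-1.04). In MC3T3 against NIH3T3 cells, quantile normalization ended the calls of Col5a2 (0.97), Col6a2 (0.89) and Col8a1 (0.95). This left 7 higher, beside 1560 of all 10091 genes. Without NIH3T3 replicate 2, Col5a3 (0.99) and Col8a1 (0.93) lost their call in this comparison and Col12a1 (1.17) and Col15a1 (1.06) gained one. Col6a2 lost its call there without MC3T3 replicate 2 (0.95) or NIH3T3 replicate 1 (0.93).

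Signs changed only in genes that were not called. In co-culture, Col1a2 was at -0.04 with quantile normalization, -0.02 with median scaling and -0.01 with the mean of probe sets, and from 0 to 0.02 when an array was left out, and Col1a1 was at 0 with the mean of probe sets. In OP9 against NIH3T3 cells, quantile normalization gave -0.09 for Col27a1 and 0.02 for Col8a2, the mean of probe sets -0.49 for Col1a2, and leaving out an array -0.01 to 0.24 for Col27a1 and -0.35 to 0.19 for Col8a2. In OP9 against MC3T3 cells Col7a1 was at -0.21 to 0.15 when an array was left out. In MC3T3 against NIH3T3 cells the mean of probe sets gave -0.89 for Col1a2, whose probe sets disagree, and 0.2 for Col27a1.

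The median difference of all genes between OP9 and NIH3T3 cells was 0.16 as deposited and 0.01 after quantile normalization, and between MC3T3 and NIH3T3 cells 0.12 and 0.01. The replicate block left the counts as they were, with 2 higher and 3 lower in co-culture and 12 higher and 5 lower in OP9 against NIH3T3 cells. Same-numbered arrays deviated together with correlations of 0 to 0.18, the highest between OP9 and MC3T3 cells. With 2 arrays per group these values cannot show whether arrays were paired by design.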
